A study of Homo sapiens with 6 samples.

Results

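Expression of the interferon-stimulated genes was compared in HL-60, an established line of human promyelocytic leukaemia cells, between an OSGEP knockdown by short hairpin RNA and a control hairpin. A fixed list of 41 symbols was used, made up of genes that type I and type II interferons induce and of the STAT and IRF factors that act on them. It was chosen with earlier results of these data known. All 41 were found among the 58302 Ensembl genes of the count tables, RIGI under its current name. Each group held 3 libraries of total RNA from cells grown in 20% fetal bovine serum. The labels call the genotype of the control WT although those cells carry the control hairpin. Nothing in them tells if the 3 libraries are separate cultures or how many hairpin sequences were used. The p-values therefore reflect spread between libraries that may be technical. OSGEP is the catalytic subunit of the complex that makes the t6A modification of tRNA, and the study asked about its role in the growth and survival of leukaemia cells. No interferon was added in any group as far as the labels say. Both groups carry a hairpin, so levels in cells without one cannot be read from these libraries.

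Interferons are secreted proteins that warn cells of infection. Type I interferons bind IFNAR1 and IFNAR2, which activate the kinases JAK1 and TYK2 and assemble a factor with STAT2 and IRF9 that binds the interferon-stimulated response element (ISRE) in promoters. Type II interferon binds IFNGR1 and IFNGR2 and acts mainly on another element (GAS). The induced proteins block viral entry, translation and replication, sense foreign nucleic acids and feed back on the pathway, and many are kept at a low level in myeloid cells without stimulation.

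OSGEP itself, as a check of the labels, stood at 49.0, 54.4 and 76.9 CPM (counts per unit of library size after TMM normalisation) in the control libraries and at 21.2, 23.1 and 20.9 CPM in the knockdown libraries. Total counts per library ran from 8326982 to 10157091. The log2 fold changes below are knockdown against control from an edgeR quasi-likelihood fit over all 14018 genes that passed a filter on low counts, and a gene was called at a Benjamini-Hochberg adjusted p under 0.05. In bulk RNA, fewer cells with a transcript and less transcript per cell cannot be told apart.

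The interferon-stimulated genes did not move one way. Of the 41, 33 passed the filter, and of these 1 rose (IFI16), 2 fell (IFITM2 and HERC5) and 30 were not called. The 3 calls are 9.09% of the tested members, beside 10.8% of all tested genes called in either direction (5.19% higher and 5.56% lower). Over all genes 727 rose and 780 fell; with library size alone as the scale 859 of 1471 called genes rose, while the members gave 1 rise and 1 fall. The median log2 fold change was 0.10 over the tested members and 0.005 over all tested genes, with 19 members above 0 and 14 below. The sign of the members' median turned with the processing, to -0.13 for the 21 members with a mean of at least 5 CPM and to -0.015 with limma-voom. All 3 knockdown libraries lay above all 3 controls for 3 members, 9.09% of those tested (13.3% of all tested genes), and below them for 9 members, 27.3% (15.6% of all tested genes). Summed over the 41 members, expression was 679 to 736 CPM in the controls and 630 to 741 CPM in the knockdown, so the groups overlapped. Without IFI16, the sums were 571 to 610 CPM in the controls and 479 to 508 CPM in the knockdown, which did not overlap. IFI16, the only called rise, was set aside after its values were seen. The 2 called falls remained in these sums. IFITM2 had means of 102 CPM in the controls and 55.6 CPM in the knockdown, and HERC5 had 36.1 and 21.0 CPM.

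**Figure D1:**
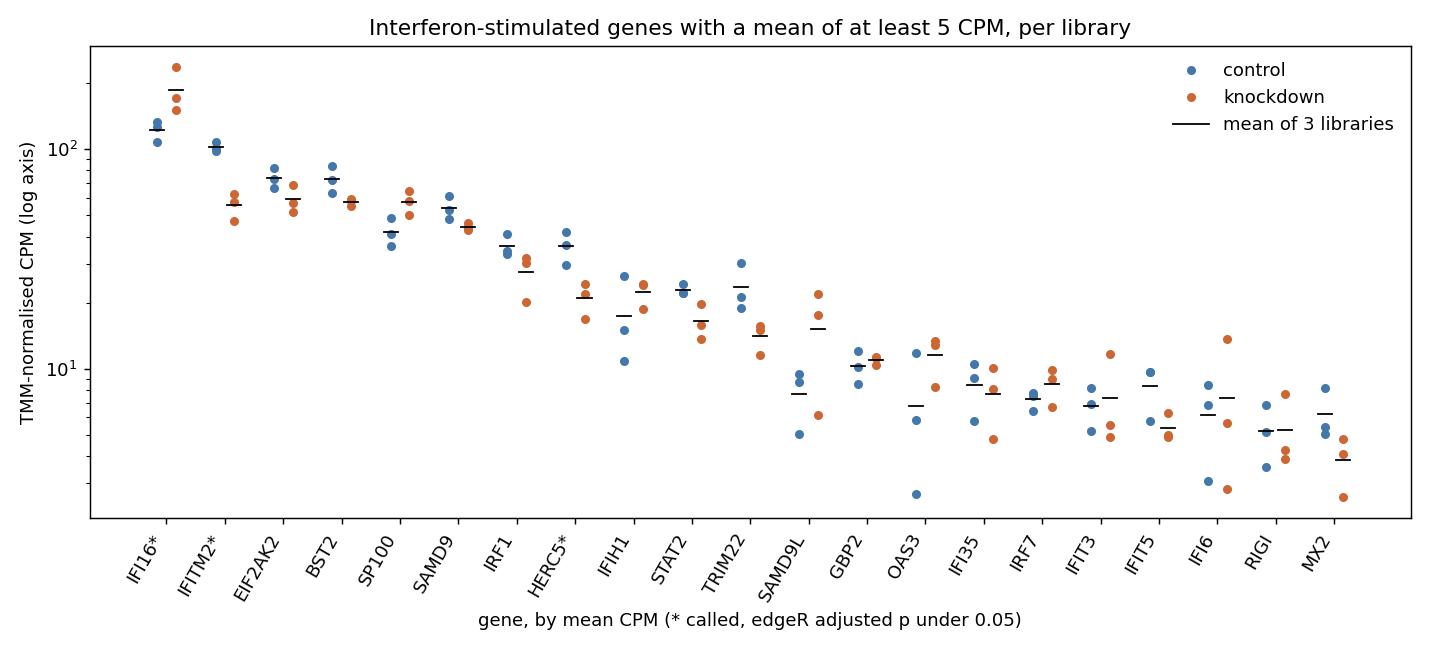
TMM-normalised CPM (log axis) of the 21 interferon-stimulated genes with a mean of at least 5 CPM, ordered by that mean; points are the 3 control (blue) and 3 knockdown (orange) libraries, bars are group means and asterisks mark called genes. IFI16 stands above its controls in the knockdown and IFITM2 below, while most of the less abundant genes overlap.

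**Figure D2:**
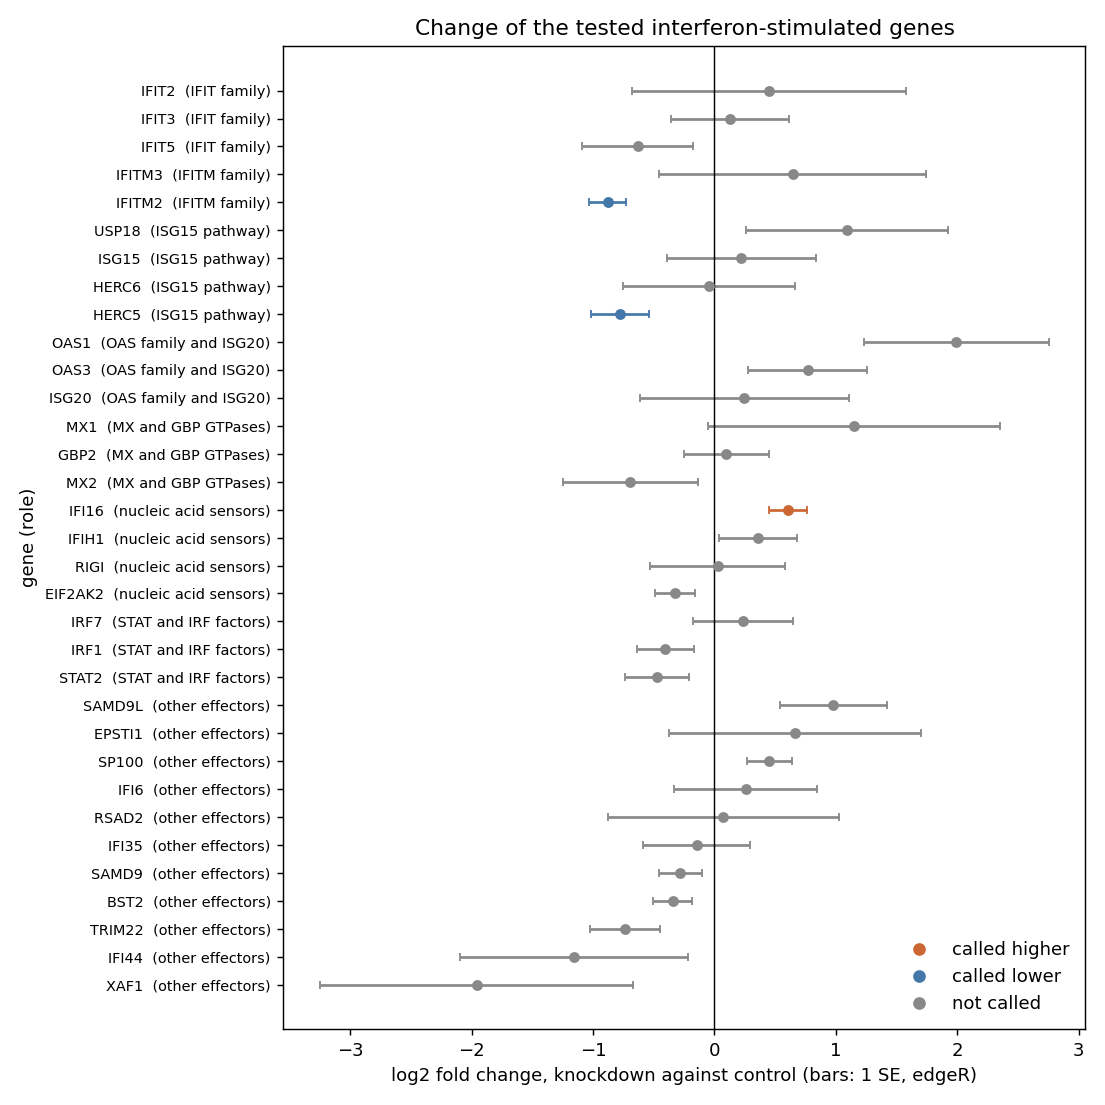
Log2 fold change of the 33 tested members with 1 SE on each side, by role, from the edgeR fit; orange is called higher, blue called lower and grey not called. The points lie on both sides of 0, and the bars widen for genes with few reads.

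The precision of these values followed the level of the gene. For the 8 members with a mean of at least 20 CPM the standard error of the log2 fold change was 0.15 to 0.24, and all 3 calls were among them. Of those 8, 6 had a log2 fold change below 0 and 2 above. The shares over all genes of that level were not computed, so these counts describe only those 8 members. For the 13 members from 5 to 20 CPM the standard error was 0.26 to 0.59, and for the 12 under 5 CPM it was 0.61 to 1.29, with log2 fold changes from -1.96 to 1.99 and no call. Changes of the size seen in IFITM2 were therefore not detectable at this depth in those 12 members.

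Levels between genes were compared per length, as TPM, counts per length scaled to a common total over the union of exons of GENCODE 29. In the controls the highest members were IFITM2, at 110.3 ± 3.95 TPM (SD, n = 3), and BST2, at 109 ± 16.4 TPM, which did not differ beyond their spread. IFI16 followed at 38.4 ± 3.74 TPM. SAMD9 (13.1 ± 1.66), HERC5 (12.6 ± 2.07), IFI6 (11.8 ± 5.42) and EIF2AK2 (11.4 ± 1.18 TPM) came next and were within their spread of each other. In the knockdown BST2 stood at 92.4 ± 7.18 TPM, above IFITM2 at 64.7 ± 9.47 and IFI16 at 62.9 ± 13.1 TPM.

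The IFITM proteins sit in membranes and hinder the fusion of viruses with the cell. IFITM2 (ENSG00000185201, chromosome 11, 307631 to 315272, plus strand, GRCh38) had 98.4, 101 and 108 CPM in control libraries 1, 2 and 3 and 62.5, 57.2 and 47.1 CPM in knockdown libraries 1, 2 and 3. Every knockdown library was below every control. The fall was 0.88 on the log2 scale (SE 0.15, edgeR adjusted p = 0.00122), and the call held under all 14 alternatives tried, with log2 fold changes from -0.97 to -0.76 and adjusted p-values from 1e-05 to 0.0152. Its relatives were scarce. IFITM3 had 33 counts in the controls and 55 in the knockdown (0.64, SE 1.10, edgeR adjusted p = 0.811), and IFITM1 had 4 and 5 counts and did not pass the filter. The annotation places 22.7% of the exon length of IFITM2 inside exons of IFITM1 on the same strand, and 24.2% of the stretches of 75 bases in its transcripts recur in transcripts of other genes, most often IFITM1. The division of reads within this family is therefore uncertain, and its effect on the counts was not tested.

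IFI16 binds DNA in the nucleus and cytosol and takes part in innate sensing. IFI16 (ENSG00000163565, chromosome 1, 158999968 to 159055155, plus strand) had 108, 127 and 133 CPM in control libraries 1, 2 and 3 and 236, 172 and 152 CPM in knockdown libraries 1, 2 and 3. The groups did not overlap, and knockdown library 1 was the highest. The rise was 0.61 on the log2 scale (SE 0.16, edgeR adjusted p = 0.0212). Without knockdown 1 the log2 fold change was 0.40 and the call was lost (edgeR adjusted p = 0.0767). The call was also lost without control 1, 2 or 3, where the log2 fold change was 0.52, 0.63 and 0.67. It was lost as well with the replicate number as a block (0.58) and at an adjusted p under 0.01. Over its alternatives the adjusted p-values ran from 0.000837 to 0.114. IFI16 made up 15.9% to 18.6% of the summed CPM of the members in the control libraries and 24.0% to 31.8% in the knockdown libraries.

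The other sensors were not called. EIF2AK2, the kinase PKR that stops translation on double-stranded RNA, had 66.8, 81.9 and 73.1 CPM in the controls and 68.7, 51.8 and 56.8 CPM in the knockdown (-0.32, SE 0.17, edgeR adjusted p = 0.266). IFIH1, the RNA sensor MDA5, had 14.9, 26.5 and 10.8 CPM and 24.1, 18.8 and 24.3 CPM (0.36, SE 0.32, edgeR adjusted p = 0.584). The groups overlapped for both genes. RIGI, the sensor of RNA ends, had 143 counts in the controls and 156 in the knockdown (0.03, SE 0.55).

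ISG15 is a ubiquitin-like protein, HERC5 the ligase that attaches it to other proteins, HERC6 a relative of that ligase and USP18 the protease that removes it and damps the receptor. HERC5 (ENSG00000138646, chromosome 4, 88457117 to 88506163, plus strand) had 29.8, 41.7 and 36.7 CPM in control libraries 1, 2 and 3 and 21.8, 24.3 and 16.8 CPM in knockdown libraries 1, 2 and 3, with no overlap. The fall was 0.78 on the log2 scale (SE 0.24), with an edgeR adjusted p of 0.0481, close to the threshold. The call held in 4 of 14 alternatives, with adjusted p-values from 0.0331 to 0.218. It was lost with RLE size factors (-0.76), library size alone (-0.71), limma-voom (-0.76) and the replicate number as a block (-0.78), and at an adjusted p under 0.01. It was also lost without knockdown 1 (-0.81), knockdown 3 (-0.63), control 1 (-0.90), control 2 (-0.66) or control 3 (-0.77). ISG15 itself had 3.81, 2.97 and 4.80 CPM in the controls and 4.38, 3.42 and 5.69 CPM in the knockdown, which overlapped (0.22, SE 0.61, edgeR adjusted p = 0.893). HERC6 had 104 and 102 counts. USP18 had 59 and 134 counts (1.09, SE 0.83, edgeR adjusted p = 0.502), and 18.3% of the stretches of 75 bases in its transcripts recur elsewhere, most often in USP41.

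**Figure D3:**
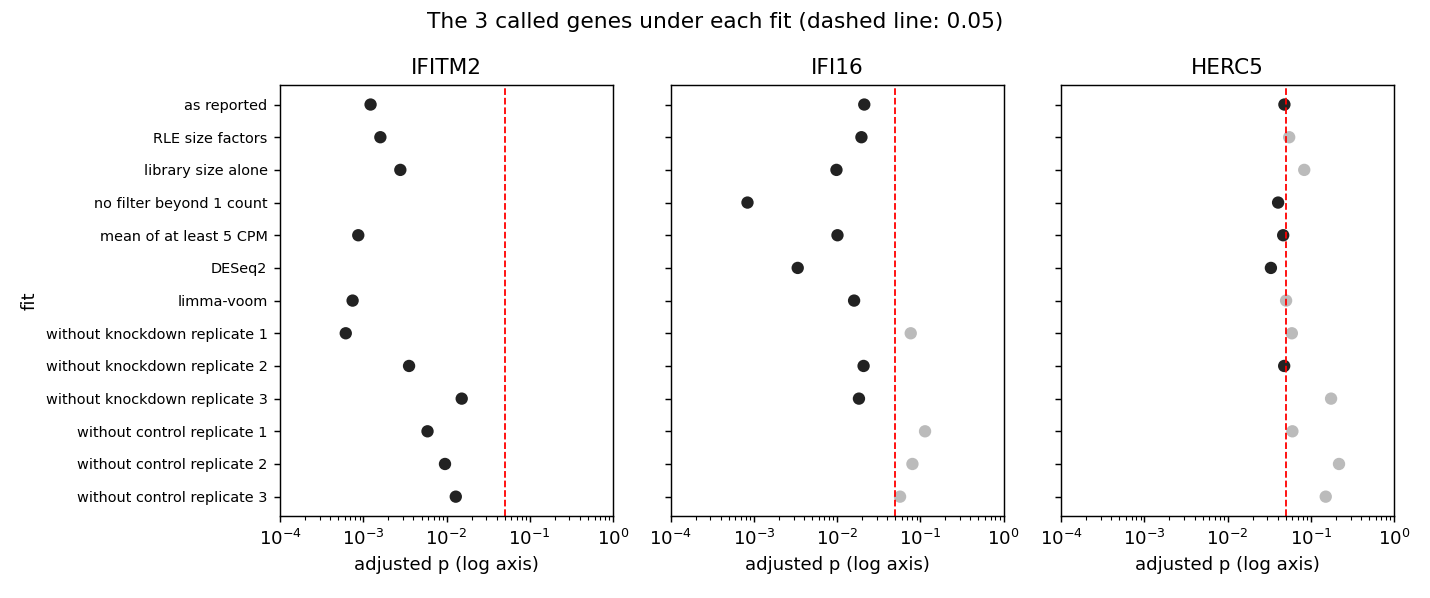
Adjusted p (log axis) of the 3 called members under the fit as reported and under 12 alternatives. Black points pass 0.05 (dashed line) and grey points do not. The threshold of 0.01 and the edgeR fit with the replicate number as a block are not drawn. In that block fit IFI16 (adjusted p = 0.0686) and HERC5 (0.0833) lost their calls. IFITM2 passes in every fit. Its points for DESeq2 (1e-05) and for edgeR with no filter beyond 1 count (2.21e-05) lie below the start of the axis. IFI16 loses its call in the fits without knockdown 1 or any control. HERC5 lies on both sides of the line, from 0.0331 (DESeq2) to 0.218 (edgeR without control 2).

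The sequences before the start sites of the called members HERC5 and IFI16 are shown beside those of ISG15 and BST2, which were not called, because the ISRE is the element through which type I interferon acts. The letters searched were GAAA, any 2 bases and GAAA again for the ISRE, and TTCNNNGAA for the GAS element, on both strands, in the 300 bases from 250 before to 50 after each RefSeq start (GRCh38.p14). RefSeq start regions were matched for 32 of the 41 members, in 41 windows; IFITM2 was not among them. The 250 bases before the start are printed 5′ to 3′ on the gene's strand, with ISRE matches in capitals; overlapping matches run together. HERC5 is at chr4:88456869-88457118 (plus strand), IFI16 at chr1:159009657-159009906 (plus strand, the more downstream of its 2 listed starts), ISG15 at chr1:1013247-1013496 (plus strand) and BST2 at chr19:17405631-17405880 (minus strand).
HERC5: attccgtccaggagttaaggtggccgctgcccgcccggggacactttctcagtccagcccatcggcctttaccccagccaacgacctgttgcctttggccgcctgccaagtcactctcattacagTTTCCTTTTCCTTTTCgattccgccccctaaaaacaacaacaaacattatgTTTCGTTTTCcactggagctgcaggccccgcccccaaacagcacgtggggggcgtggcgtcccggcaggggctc
IFI16: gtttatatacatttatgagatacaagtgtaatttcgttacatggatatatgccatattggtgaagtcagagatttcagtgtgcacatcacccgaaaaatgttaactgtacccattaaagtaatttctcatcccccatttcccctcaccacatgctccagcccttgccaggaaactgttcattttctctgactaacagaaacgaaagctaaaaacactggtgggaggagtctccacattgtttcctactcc
ISG15: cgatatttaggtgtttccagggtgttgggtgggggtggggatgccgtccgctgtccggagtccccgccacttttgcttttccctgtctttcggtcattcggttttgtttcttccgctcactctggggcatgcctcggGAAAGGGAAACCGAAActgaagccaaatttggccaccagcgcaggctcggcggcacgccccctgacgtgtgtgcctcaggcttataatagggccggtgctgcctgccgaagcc
BST2: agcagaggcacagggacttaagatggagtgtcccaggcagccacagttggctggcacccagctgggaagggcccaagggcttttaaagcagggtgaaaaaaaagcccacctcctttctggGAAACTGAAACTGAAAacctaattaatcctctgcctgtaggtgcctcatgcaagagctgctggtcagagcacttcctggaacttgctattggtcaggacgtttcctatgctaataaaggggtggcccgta

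HERC5 holds 3 ISRE matches, ISG15 and BST2 hold 2 each, and neither start region of IFI16 holds one. An ISRE match lay in 25 of the 41 member windows (61.0%) and in 3.58% of all 35097 start regions of the same length. A GAS match lay in 10 member windows (24.4%) and in 7.66% of all. These matches are descriptions of letters, not of bound sites. Among the tested members with an ISRE match, 16 genes, the median log2 fold change was 0.17, the range was -1.16 to 1.15, and 1 fell (HERC5). Among the 10 tested members with start regions but no match the median was -0.01, the range was -1.96 to 1.99, and 1 rose (IFI16). The 7 tested members with no matched start region had a median of 0.10 and a range of -0.88 to 1.09, and 1 fell (IFITM2). Over all tested genes 10.8% were called in either direction. The ends of the first 2 ranges were genes under 5 CPM that edgeR did not call. They were IFI44 (SE 0.94) and MX1 (SE 1.20) with a match, and XAF1 (SE 1.29) and OAS1 (SE 0.76) without. Estimates thus lay on both sides of 0 with and without the element, but those at the ends were imprecise. Differences between these sets were not tested.

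The STAT and IRF factors carry the signal to the promoters. STAT2 had 24.3, 22.1 and 22.2 CPM in the controls and 15.9, 19.8 and 13.6 CPM in the knockdown (-0.47, SE 0.26, edgeR adjusted p = 0.317). IRF1, a factor of the type II response, had 33.4, 34.5 and 41.2 CPM and 30.4, 20.1 and 32.0 CPM (-0.40, SE 0.23, edgeR adjusted p = 0.338). The groups did not overlap for either gene, yet neither was called. IRF7, the amplifier of type I interferon production, had 7.52, 6.44 and 7.75 CPM and 6.68, 9.89 and 9.01 CPM, which overlapped (0.24, SE 0.41, edgeR adjusted p = 0.813). IRF9, the DNA-binding part of the type I factor, had 1 count in the controls and 0 in the knockdown. The annotation places 48.4% of the exon length of IRF9 inside another protein-coding gene on the same strand, ENSG00000259529, which had 35 and 28 counts. The part of that overlap in the low count was not tested.

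The IFIT proteins bind viral RNA and block its translation. IFIT3 had 6.90, 5.22 and 8.12 CPM in the controls and 11.7, 5.55 and 4.86 CPM in the knockdown (0.13, SE 0.48, edgeR adjusted p = 0.921). IFIT5 had 9.69, 9.61 and 5.78 CPM and 4.90, 6.29 and 4.98 CPM (-0.63, SE 0.46, edgeR adjusted p = 0.468). Both overlapped between groups. IFIT2 had 38 and 58 counts, and IFIT1 had 27 and 28 counts and did not pass the filter.

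The OAS enzymes make the messenger that activates RNase L, and ISG20 is an exonuclease. OAS1 had 14, 10 and 13 counts in the control libraries and 38, 37 and 75 counts in the knockdown libraries, with no overlap in CPM and the highest value in knockdown 3. Its log2 fold change of 1.99 (SE 0.76) was not called by edgeR (adjusted p = 0.119) and was called by DESeq2 (2.02, adjusted p = 0.0414). OAS3 had 2.68, 5.83 and 11.8 CPM and 8.24, 12.9 and 13.4 CPM, which overlapped (0.77, SE 0.49, edgeR adjusted p = 0.400). The relatives that did not pass the filter were OASL, with 48 counts in the controls and 8 in the knockdown and no overlap, and OAS2, with 18 and 11. ISG20 had 76 and 92 counts (0.25, SE 0.86).

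The MX and GBP proteins are large GTPases that act on viral capsids and on microbes in vacuoles. GBP2 had 8.49 to 12.1 CPM in the controls and 10.4 to 11.3 CPM in the knockdown (0.10, SE 0.35, edgeR adjusted p = 0.917). MX2 had 8.14, 5.42 and 5.05 CPM and 4.80, 4.07 and 2.61 CPM, without overlap (-0.69, SE 0.56, edgeR adjusted p = 0.527). MX1 varied more within groups than between them, at 2.68, 1.23 and 0.123 CPM in control libraries 1, 2 and 3 and 6.78, 2.13 and 0.119 CPM in knockdown libraries 1, 2 and 3 (1.15, SE 1.20). GBP1 did not pass the filter, with 4 counts in the controls and 28 in the knockdown, most of them in knockdown 3 (2.96 CPM, against 0.104 and 0.185 in the other knockdown libraries).

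Among the remaining effectors none was called. BST2 (tetherin), which holds budding virus at the cell surface, had 83.6, 72.2 and 63.1 CPM in the controls and 55.2, 58.1 and 59.4 CPM in the knockdown (-0.34, SE 0.16, edgeR adjusted p = 0.218). SP100, a scaffold of nuclear bodies, had 36.3, 41.2 and 48.7 CPM and 57.8, 64.3 and 50.2 CPM (0.45, SE 0.18, edgeR adjusted p = 0.147). TRIM22, an antiviral ubiquitin ligase, had 18.9, 21.3 and 30.4 CPM and 11.6, 15.1 and 15.7 CPM (-0.74, SE 0.29, edgeR adjusted p = 0.125). In each of these the groups did not overlap. With OAS1 and SAMD9L, they make up the 5 uncalled members with an unadjusted p under 0.05.

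SAMD9 and SAMD9L are neighbouring antiviral genes that restrict translation. SAMD9 had 47.9, 61.3 and 52.6 CPM in the controls and 42.8, 46.0 and 44.4 CPM in the knockdown (-0.28, SE 0.17, edgeR adjusted p = 0.388). SAMD9L had 8.66, 9.41 and 5.05 CPM and 17.5, 21.9 and 6.17 CPM (0.98, SE 0.44, edgeR adjusted p = 0.198), with knockdown 3 among the control values. The estimates of the pair thus lay on opposite sides of 0, neither of them called.

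The other effectors were scarce. IFI6, a mitochondrial survival protein, had 8.45, 6.85 and 3.08 CPM in the controls and 2.82, 5.64 and 13.6 CPM in the knockdown (0.26, SE 0.59), and IFI35 had 10.5, 9.10 and 5.78 CPM and 4.80, 10.1 and 8.06 CPM (-0.15, SE 0.44). RSAD2 (viperin) had 71 and 74 counts, EPSTI1 38 and 60, IFI44 119 and 58, and XAF1 55 and 14. XAF1 was below its controls in every knockdown library (-1.96, SE 1.29, edgeR adjusted p = 0.419), and 38.3% of its exon length lies opposite exons of a gene on the other strand. IFI27 (19 and 4 counts) and IFI44L (33 and 18) did not pass the filter. Exons also lie opposite another gene for IRF1 (22.0% of exon length) and IFITM3 (21.3%). They lie inside a gene on the same strand for TRIM22 (10.7%), GBP2 (9.9%), IFIT2 (8.7%) and SP100 (4.3%), whose partners had at most 6 counts in a group. The handling of shared reads is not known, so these low counts do not tell if the members lost reads.

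The genes upstream of the interferon-stimulated genes were read from fixed lists, also chosen with earlier results of these data known. Calls in these lists, and in the marker lists further on, can be set beside those over all tested genes (5.19% higher and 5.56% lower). Of 21 interferon genes, 0 passed the filter and 16 had no count in any library; their summed level was 0.205 to 0.412 CPM in the controls and 0.0925 to 1.30 CPM in the knockdown. Of 5 tested receptor genes 1 rose and 0 fell. IFNGR1, the binding chain of the type II receptor, had 44.0, 57.6 and 43.2 CPM in the controls and 141, 130 and 164 CPM in the knockdown (1.59, SE 0.16, edgeR adjusted p = 6.25e-06), a call that held in every alternative. Its partner IFNGR2 (0.56, SE 0.21, edgeR adjusted p = 0.105) and the type I chains IFNAR1 (0.39, SE 0.14, edgeR adjusted p = 0.111) and IFNAR2 (-0.39, SE 0.19, edgeR adjusted p = 0.241) were not called; these 3 were named after their values were seen. IFNAR1 passed with library size alone (0.45), and IFNGR2 passed with no filter beyond 1 count (0.56) and without knockdown 1 (0.71).

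Of 10 tested receptor kinases, STATs and inhibitors, 0 were called by edgeR, and 0 had an unadjusted p under 0.05. The phosphatase genes PTPN11 and PTPN6, the most abundant of this list, had 169 ± 6.30 and 133 ± 18.0 CPM in the controls and 169 ± 30.0 and 138 ± 38.4 CPM in the knockdown (SD, n = 3).

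Of 7 other IRF and IRF-partner genes tested, 2 fell and 0 rose. IRF8, a factor of monocyte and dendritic cell development, had 215, 238 and 268 CPM in the controls and 115, 105 and 126 CPM in the knockdown (-1.06, SE 0.13, edgeR adjusted p = 3.79e-05). IRF2BP2, a co-repressor that binds IRF2, had 399, 418 and 401 CPM and 238, 196 and 229 CPM (-0.88, SE 0.11, edgeR adjusted p = 5.21e-05). Both falls were called in all alternatives.

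Of 15 other sensors and adaptors tested, 2 rose and 2 fell. STING1, the adaptor of cytosolic DNA sensing, had 70.5, 70.1 and 65.6 CPM in the controls and 29.2, 32.1 and 26.2 CPM in the knockdown (-1.23, SE 0.18, edgeR adjusted p = 0.00018). MYD88, the adaptor of most Toll-like receptors, had 65.1, 94.2 and 67.8 CPM and 139, 146 and 133 CPM (0.88, SE 0.16, edgeR adjusted p = 0.00131). TRAF3 rose by 0.95 on the log2 scale (SE 0.26, edgeR adjusted p = 0.0254), a call lost without knockdown 1 (0.61) or control 1, 2 or 3 (0.88, 0.88 and 1.08). MAVS, the adaptor of RIGI and IFIH1, fell by 0.61 (SE 0.18, edgeR adjusted p = 0.0424) and lost its call with RLE size factors (-0.60), library size alone (-0.54) and without knockdown 2 (-0.67), knockdown 3 (-0.44) or control 1, 2 or 3 (-0.68, -0.68 and -0.49). MAVS was named after its values were seen.

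A further list of 53 interferon-induced genes that are not members had 42 tested. Of these 6 rose, 3 fell and 33 were not called, with a median log2 fold change of -0.06. Over all tested genes, 5.19% were called higher and 5.56% lower. The chemokine gene CCL2 had 7.63, 5.22 and 3.20 CPM in the controls and 134, 150 and 155 CPM in the knockdown (4.76, SE 0.24, edgeR adjusted p = 2.31e-09). SLFN5 rose by 2.07 on the log2 scale (SE 0.47, edgeR adjusted p = 0.00778) and the secreted glycoprotein gene LGALS3BP by 1.71 (SE 0.21, edgeR adjusted p = 5.01e-05). The other 3 rises were the lysosomal reductase gene IFI30 (3.46, SE 0.99), APOL6 (1.54, SE 0.18) and APOL2 (1.50, SE 0.42), and the 3 falls were the immunoproteasome subunit gene PSMB9 (-1.57, SE 0.22), TDRD7 (-0.97, SE 0.23) and TENT5A (-0.85, SE 0.17); these 6 were named after their values were seen. Some of these calls were lost in fits with fewer libraries while the log2 fold change stayed on the same side of 0. For APOL2 these were the fits that left out control 2 (1.19), control 3 (1.27), knockdown 2 (1.47) or knockdown 3 (1.54). For IFI30 they left out control 2 (2.87), control 3 (3.40), knockdown 2 (3.62) or knockdown 3 (3.20); limma-voom on all 6 libraries did not call it either (4.22). TDRD7 lost its call without knockdown 3 (-0.81) or control 2 (-0.86). CXCL10, a chemokine gene strongly induced by type II interferon, had no count in any library.

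**Figure D4:**
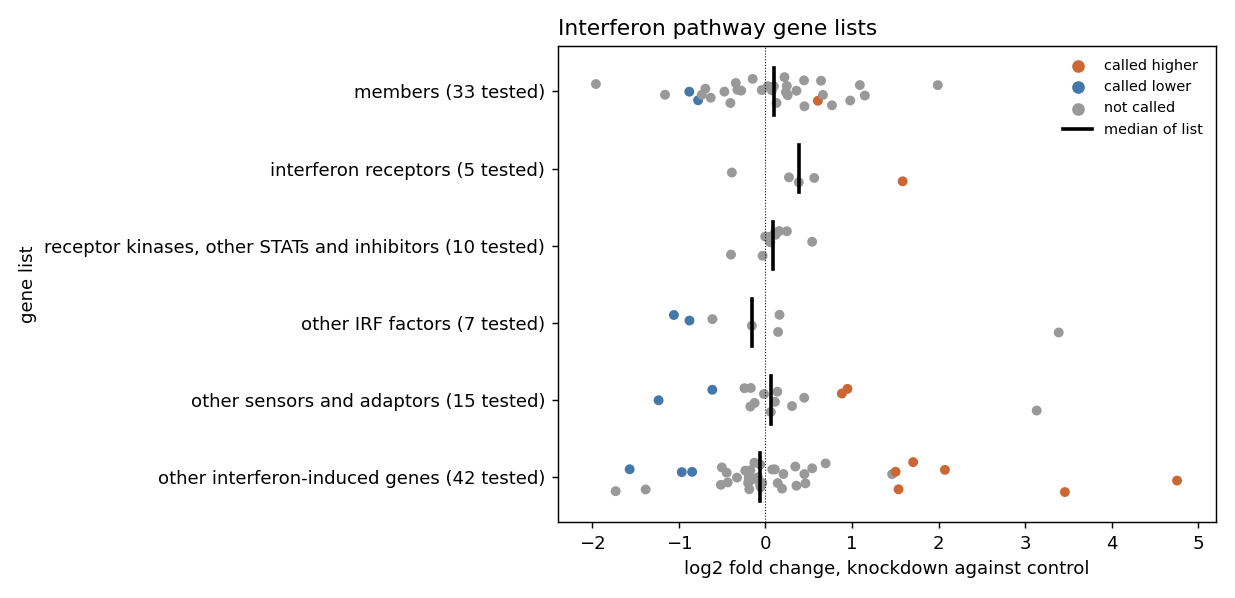
Log2 fold change of the tested genes of each interferon list, knockdown against control; each point is a gene (orange called higher, blue called lower, grey not called) and the black bars are list medians. The member list has its median at 0.10, and the other interferon-induced genes hold the steepest rise, CCL2 at 4.76.

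Markers of myeloid maturation moved in the same libraries. Of 8 promyelocyte and granulocyte markers, 5 fell and 0 rose, and their summed level was 2810 to 2980 CPM in the controls and 991 to 1100 CPM in the knockdown; the leading falls were AZU1, MPO and PRTN3 (-2.57, -1.74 and -1.47). Of 7 tested monocyte and macrophage markers, from 10 listed, 4 rose, among them CD36 and CD14 (6.93 and 3.48), and 0 fell. The sums over that list were 86.1 to 90.3 CPM in the controls and 297 to 373 CPM in the knockdown. The other 3 were not called. FCGR1A was below its controls in every knockdown library (-0.65, SE 0.22, edgeR adjusted p = 0.0723), while CSF1R (0.05) and ITGAM (0.30) overlapped between groups. In the granulocyte list, CEBPE (0.94, edgeR adjusted p = 0.154) and CEBPA (0.28) had estimates above 0 and overlapped. These genes were named after their values were seen. The part of the marker shifts in the values of the interferon genes was not tested. Of the plasmacytoid dendritic cell markers, a cell type known for interferon production, CLEC4C had no count in any library, 2 of 5 were tested and 0 were called by edgeR, with 0 at an unadjusted p under 0.05, and the most abundant, TCF4, had 24.1 ± 4.53 CPM in the controls and 22.7 ± 2.78 CPM in the knockdown. Of the lymphoid markers 2 of 8 were tested and NKG7 fell (-1.88). Erythroid markers summed to at most 7.93 CPM. Of the epithelial and mesenchymal markers, with sums of 21.2 to 30.3 CPM in the controls and 33.0 to 52.4 CPM in the knockdown, 5 of 7 were tested and CDH1 rose (1.59). Its call was lost without knockdown 1 (1.50), knockdown 3 (1.59), control 1 (1.58), control 2 (1.69) or control 3 (1.51), with adjusted p-values from 0.0543 to 0.0811.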

How the data were processed

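RNA was sequenced from 6 libraries, 3 per group, with a stranded mRNA kit and paired-end reads of 150 bp, per the labels' protocols. The authors deposited whole-number read counts per Ensembl gene; the submitters' processing notes list HISAT2 2.1.0, featureCounts 1.6.3 and the builds GRCh38 and GRCm38 without their roles. The sources used here give neither the annotation nor the strand setting nor the handling of shared reads, so overlapping genes may not be told apart.

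Symbols came from a table of current names (57532 of 58302 identifiers), positions and exon lengths from GENCODE 29 (58039 identifiers), and start regions from RefSeq. Counts were fitted with the quasi-likelihood test of edgeR 4.0.16 (R 4.3.3, two-sided, TMM, group as the only term, filterByExpr with a minimum count of 10 and minimum total of 15), which tested 14018 genes and left out 44284. The steps were tested on simulated counts. The standard error is the log2 fold change divided by the root of F. Alternatives were RLE factors, library size alone, no filter beyond 1 count, a mean of 5 CPM, the replicate number as a block, DESeq2 1.42.0, limma-voom (limma 3.58.1), an adjusted p of 0.01 and each library left out. Libraries of the same group differed beyond counting noise (chi-square over its degrees of freedom 10.53 to 25.56), so none was merged with another as a repeat deposit.

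The members and lists were chosen with earlier results of these data known. Of each other list, the text names at most 3 called genes above a mean of 5 CPM, by size of change, or, with no call, at most 2 by level; genes named otherwise are marked. Some genes of these lists are not reported here by name.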

Additional observations from a re-analysis of the deposited data

How the results depend on the processing

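Of the 3 called members, IFITM2 kept its call in 14 of 14 alternatives, IFI16 in 8 and HERC5 in 4, and 0 changed sign. Of the uncalled members, 10 changed sign in at least 1 alternative, counting the fits that left out 1 library. IFIT2 and IFIT3 did so only in such fits, so the sign of an uncalled member can rest on 1 library. The number of members called higher, 1 as reported, was 0 at an adjusted p under 0.01, 2 with DESeq2 (IFI16 and OAS1) and 0 to 1 without 1 library. The number called lower, 2 as reported, was 1 with RLE size factors, library size alone, limma-voom or an adjusted p under 0.01, and 1 to 2 without 1 library. The median log2 fold change of the tested members, 0.10 as reported, was -0.13 for a mean of at least 5 CPM, where fewer members were tested (21), and -0.015 with limma-voom, where the cause was not tested; without 1 library it ran from -0.148 to 0.17. It was below 0 without knockdown 1, without knockdown 3 and without control 2 (-0.029), and the cause was not tested. Of all genes, 1507 were called as reported, 823 at an adjusted p under 0.01, and from 870 (without control 3) to 1624 (without knockdown 1) without 1 library, with 890 without control 2 and 941 without knockdown 3.

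With the replicate number as a block, 1072 genes were called, of them 0 members higher and 1 lower, IFITM2 (-0.89); IFI16 stood at 0.58 (adjusted p = 0.0686), HERC5 at -0.78 (0.0833), and the median of the members was 0.00. Of the other named genes, TRAF3 (0.90, adjusted p = 0.0637), MAVS (-0.62, 0.0926), IFI30 (3.92, 0.0578) and CDH1 (1.59, 0.0628) also lost their calls with the block. The labels give the groups the same numbers but no shared culture, and the deviations of same-numbered libraries correlated at -0.153, -0.069 and -0.035, so the numbers were not taken as pairs. The common biological coefficient of variation, 1 value for all tested genes, was 35.2% with 3 libraries a group. Of the 20 members under 5 CPM, 8 were not tested. In the other 12 the standard error of the log2 fold change was 0.61 to 1.29, which limits what can be detected in them.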
